A study of Mus musculus with 6 samples.

Results

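Sharp windows of m6A immunoprecipitate (IP) coverage near the ends of genes are described here in fetal mouse hearts. A window was taken where its mean level over the 6 libraries was at least 20 and at least 5 times the mean of all windows of its gene, in a gene of 40 or more windows, with its rank among the windows of the gene in the first or last 20%. This rule was met by 8739 of 5193362 windows, in 1365 of 48505 genes. The level, the fold over the gene and the position chose these end windows and are given as description only, whereas the exposure of the dams played no part in the choice.

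The mark m6A, or N6-methyladenosine, is mapped by pulling down RNA fragments that carry it with an antibody and sequencing them. In messenger RNA the mark is known to be dense around stop codons and in the 3′ untranslated region. Antibodies to m6A also bind N6,2′-O-dimethyladenosine (m6Am), which lies next to the cap at the 5′ end of many messenger RNAs. The antibody does not separate these marks, and which end of a gene's window order is 5′ or 3′ is not stated. Which mark, if either, a sharp window near a gene's end holds cannot be told here.

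The samples were pooled hearts of male and female wild-type FVB/NJ fetuses. Dams were 10 weeks old and breathed either filtered air, the sham group, or air carrying engineered nano-TiO2, particles of titanium dioxide, at a target of 12 mg/m3. Exposure lasted 360 minutes on each of 6 non-consecutive days within 8 days from gestational day 5, and the hearts were taken on gestational day 15. Each group had 3 IP libraries, and both groups shared strain, wild-type genotype and collection day. How litters were divided among the pools is not in the labels, so p-values measure only the spread between these 6 samples, which may in part be technical.

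Reads recovered for the windows summed to 20205024 to 31523675 per library. Whether a read was counted in several windows is not stated, so these sums need not be sequencing depths. Replicates of a group differed by more than the sampling noise of independent reads, with a chi-square per degree of freedom of 20.6 to 146. Repeated counting of reads would raise this value. Reads fell in 997523 to 1145132 windows in sham and in 1271555 to 1484331 windows in nano-TiO2 libraries, so the nano-TiO2 libraries were spread over more windows. A normalized value of 1 read was worth 0.805 to 1.35 units, depending on the library. Genes are given only as Ensembl IDs that the files do not pair with symbols, so the heart label could not be checked against marker genes and most windows are described by the size of their gene. Input libraries were not analysed here. The level of a window therefore holds both transcript abundance and recovery by the antibody, which cannot be told apart, nor can fewer cells of a type and less RNA per cell in these whole hearts.

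The end windows were spread unevenly over genes. One member was found in 395 genes, 2 to 9 in 665 genes and 10 or more in 305 genes, and the last of these held 5539 windows, or 63.4% of the total. Windows start 25 nucleotides apart while RNA was broken into fragments of about 250 to 350 nucleotides. Adjoining windows may thus count the same molecules, but how reads were given to windows is not stated. In a gene of 201 windows a member with a mean of 238 had both neighbours at 0, so reads were not shared everywhere. Adjoining members formed 3400 runs, of which 1909 were a single window and the longest had 68. A window in a single-window run stood at a median of 1.46 times the mean of its neighbours (interquartile range 1.31 to 1.81), and in 1533 of the 1909 this ratio was under 2. Most single windows therefore had neighbours not far below them, and in 59 the window stood at least 10 times over that mean, not counting windows whose neighbours were at 0.

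The mean normalized level of the members had a median of 47.5 (interquartile range 28.8 to 96.3) and reached 7094. The fold over the gene mean had a median of 6.70 and reached 264, with 1739 windows at 10-fold or more and 446 at 20-fold or more. In single libraries the 5-fold threshold was reached in all 6 by 4982 members (57.0%), and in 3 or fewer by 907. The members nearest to the level threshold had means of 20.0003 and 20.0014, and the windows just outside had 19.998 and 19.996. For the fold, the nearest values were 5.0006 inside and 4.9999 outside. Positions just inside were 0.1998 and 0.8002, and just outside 0.2002 and 0.7998.

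Window starts are offsets along the gene, not genome coordinates, and the sources used here do not state which end of that order is 3′. The spacing of windows separated genes into 2 layouts. In 23266 of 48505 genes (47.97%) the first step was 26 to 49 nucleotides in place of 25, and no later step was longer than 25. Mean IP coverage ran in opposite directions in these layouts. In 5660 genes with regular steps the mean level relative to the gene was 0.69 at 25 to 30% of the window order and 1.90 at 90 to 95%. In 5159 genes with a longer first step it was 1.97 at 5 to 10% of the order and 0.66 at 80 to 85%. The high-coverage end below is the last end of genes with regular steps and the first end of genes with a longer first step, a grouping made after seeing the files and without use of the exposure. The opposite end is called the low-coverage end.

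**Figure D1:**
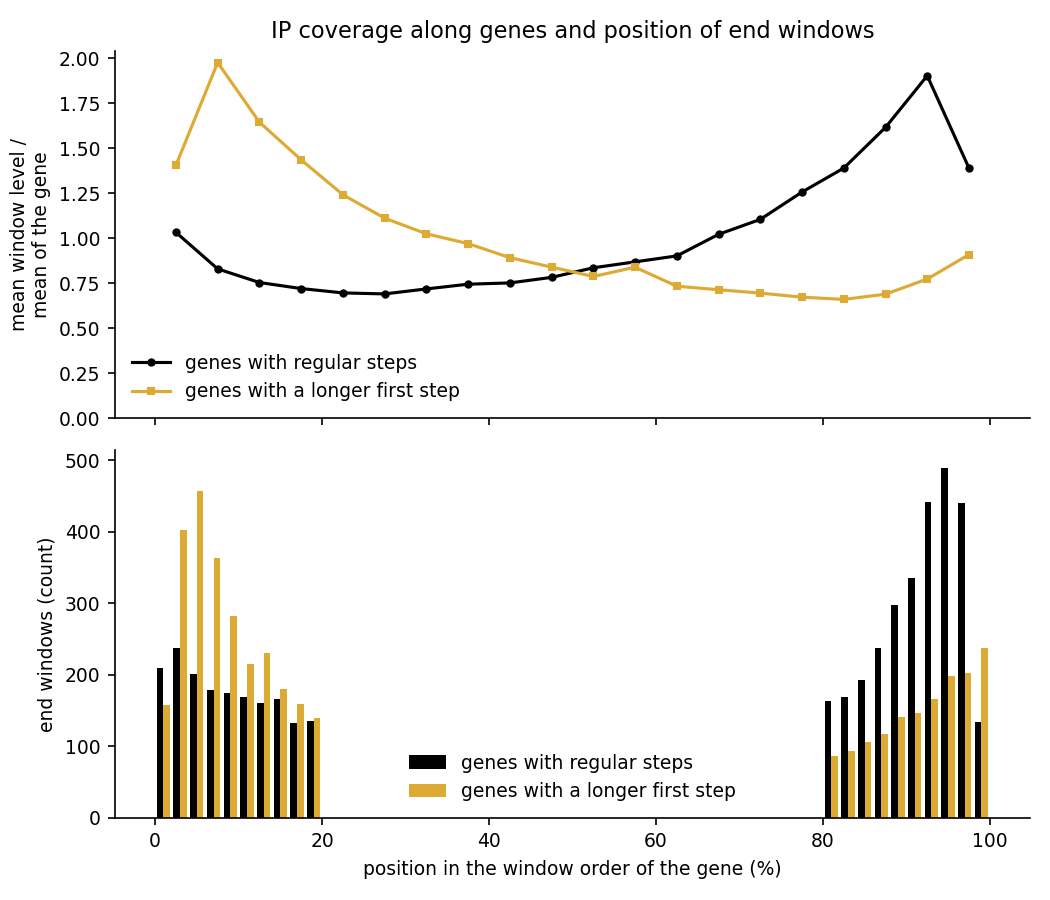
Upper plot: mean normalized level of windows relative to the mean of their gene (y axis, ratio) in 20 bins of the window order (x axis, %), for 5660 genes with regular steps and 5159 genes with a longer first step. Lower plot: number of end windows in bins of 2% of the order. The coverage curves mirror each other, peaking at 1.90 near the last end and at 1.97 near the first end, and the end windows are more numerous at the same end in each layout.

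Members lay more often at the high-coverage end. This is in part built in, because the ends were named by the level of windows and members were chosen by level. In genes with regular steps 2899 of the end windows (62.2%) were at the last end and 1763 at the first. In genes with a longer first step 2585 (63.4%) were at the first end and 1492 at the last. Grouped by coverage, 5484 members in 849 genes were at the high-coverage end and 3255 members in 620 genes at the low-coverage end, and 104 genes had members at both. Low-coverage members lay a median of 400 nucleotides from the end of the window order and high-coverage members 500. The distances differed most next to the end, where 235 low-coverage members but 2 high-coverage members lay within 50 nucleotides.

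The highest members at the high-coverage end showed how far level and share of the gene can move apart. The window with the highest mean, in a gene of 443 windows, had normalized levels of 12072, 6943 and 12835 in sham against 3820, 2514 and 4380 in nano-TiO2 libraries. Every nano-TiO2 value was below every sham value, and the level fell by 1.56 on the log2 scale (SE 0.29, adjusted p = 0.00709, limma). Its share of the reads of the gene was 13.9%, 13.8% and 13.8% in sham against 14.2%, 13.5% and 14.1% in nano-TiO2. The shares of the groups overlapped, and the log2 ratio of the window to the rest of its gene differed by 0.01 (SE 0.03, adjusted p = 0.982, limma). The next highest, in a gene of 269 windows, had levels of 6316, 8930 and 6506 in sham against 6411, 5993 and 8244 in nano-TiO2, which overlapped (adjusted p = 0.893, limma).

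At the low-coverage end the window with the highest mean, 125 nucleotides from the end of a gene of 251 windows, had levels of 4940, 4903 and 7095 in sham against 3259, 2416 and 3150 in nano-TiO2. The groups did not overlap, and the level fell by 0.93 (SE 0.24, adjusted p = 0.0215, limma). This call was lost when sham replicate 1 or 3, or nano-TiO2 replicate 1 or 3, was left out (adjusted p up to 0.0797, limma). Its share was 30.4%, 29.5% and 31.9% in sham against 29.2%, 27.8% and 28.2% in nano-TiO2, each nano-TiO2 value lower. As a log2 ratio to the rest of the gene it changed by -0.15, which did not pass the test (SE 0.04, adjusted p = 0.337, limma). Another low-coverage window held 85.6%, 86.2% and 85.9% of a gene of 74 windows in sham and 87.6%, 86.7% and 85.5% in nano-TiO2, which overlapped.

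The first comparison asked whether the IP level of the end windows differed with exposure. The deposited normalized values were tested with limma on log2(value + 1) over all 250317 windows with a mean of at least 10, with adjusted p (Benjamini-Hochberg) under 0.05 as the threshold. Among the 8739 members 596 rose, in 104 genes, and 1337 fell, in 336 genes. Of all windows tested 3.88% rose and 7.32% fell, against 6.82% and 15.3% of the members. Of the 6729 members that met the rule in the mean of each group, 345 rose (5.13%) and 1166 fell (17.3%). Members also had higher levels, with a median of 47.5 against 22.1 over all windows tested. In a fit of the 57169 windows with a mean of at least 50, 36.3% of 4172 members and 34.8% of all windows fell, with medians of -0.43 and -0.42, so at that level the share of members that fell was near that of all windows. No gene had members called in both directions. All 3 nano-TiO2 libraries lay above all 3 sham libraries in 12.7% of members and 11.5% of windows tested, and below them in 29.9% and 19.7%. The median log2 change was -0.24 over members and -0.13 over all windows tested, and it was -0.89 among members that fell and 1.25 among those that rose.

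How rises and falls were balanced depended on the scaling of the libraries. With trimmed-mean scaling 791 members rose and 542 fell, with equal library totals 1664 rose and 80 fell, and after quantile normalization 667 rose and 151 fell, all in limma. Of all windows tested 5.48% rose and 2.83% fell with trimmed-mean scaling, 13.4% and 0.387% with equal totals, and 3.39% and 1.01% after quantile normalization. The median of all windows tested moved to 0.03, 0.34 and -0.06 in these fits. Relative to that median the members stood at -0.10 with the deposited scaling, -0.10 with trimmed-mean scaling, -0.09 with equal totals and 0.01 after quantile normalization. Leaving out 1 library also moved the counts. Without nano-TiO2 replicate 3 the members had 286 rises and 845 falls. Without nano-TiO2 replicate 1 there were 374 and 789, and without sham replicate 1 there were 381 and 657. Falls numbered 777 when sham replicate 3 was left out. The background moved too, with 1.30% to 1.91% of all windows rising and 2.93% to 4.19% falling in the first 3 of these fits, and 4.63% falling in the last.

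Called members mostly went the same way as their genes. The summed level of a gene includes its members, so this agreement is in part built in. Of the 1337 that fell, 1227 were in genes whose summed IP level fell, and 592 of the 596 that rose were in genes that rose. In 3 cases a called member went against the call of its gene. Over all 18566 genes tested by their sum, 24% rose and 12% fell (limma). Of the 1365 genes with an end window 202 rose (14.8%) and 338 fell (24.8%). Their median log2 change was -0.17, against 0.13 over all genes. With equal library totals these counts turned to 461 rises (33.8%) and 19 falls (1.39%). Of all genes 43.1% rose and 0.916% fell in that fit, with a median of 0.61. Relative to all genes, the genes of members stood at -0.29 with the deposited and trimmed-mean scalings, -0.28 with equal totals and -0.09 after quantile normalization. The genes of members also had higher summed levels and more windows, with medians of 1299 and 205 against 232 and 138 over all genes tested. The parts of level and gene size in these differences were not tested. For comparison, the 6478 sharp windows inside genes met the same thresholds of level and fold between positions 0.2 and 0.8. They had 351 rises and 1117 falls (5.42% and 17.2%) and a median of -0.32.

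Grouping by first and last end separated the changes little. At the first end 289 of 4348 members rose and 643 fell in level (6.65% and 14.8%), with a median of -0.26 on the log2 scale. At the last end 307 of 4391 rose and 694 fell (6.99% and 15.8%), with a median of -0.20. Of all windows tested 3.88% rose and 7.32% fell. Grouping by coverage gave a wider gap. At the high-coverage end 441 members rose and 574 fell (8.04% and 10.5%), with a median of -0.10 (interquartile range -0.46 to 0.37). At the low-coverage end 155 rose and 763 fell (4.76% and 23.4%), with a median of -0.45 (interquartile range -0.73 to -0.10). Both layouts showed this, with high- and low-coverage medians of -0.07 and -0.44 in genes with regular steps and of -0.12 and -0.47 in genes with a longer first step.

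The gap between the ends was also read within each library, where 1 scaling factor per library all but cancels. The level of each member was first set against its mean over the 6 libraries on the log2 scale, and the median of the low-coverage end was then subtracted from that of the high-coverage end. In the sham libraries this difference was -0.20, -0.04 and -0.31, and in the nano-TiO2 libraries it was 0.09, 0.20 and 0.26. The groups did not overlap, although opposite signs are built in because each window is centred on its own mean. The difference between the ends in the median log2 change was 0.36 with the deposited scaling, 0.35 with trimmed-mean scaling and with equal totals, and 0.30 after quantile normalization. It was 0.29 to 0.44 when 1 library was left out.

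Other windows of the same end regions had medians of level closer together between the ends. In genes of 40 or more windows, 42828 end windows with a mean of at least 20 were not members because they lay under 5 times the gene mean. Their median log2 change in level was -0.19 at the high-coverage end and -0.25 at the low-coverage end, with 1721 rises and 3619 falls at both ends together. At the high-coverage end 4.49% of them rose and 7.29% fell, and at the low-coverage end 3.27% and 10.3%. Falls were thus more frequent at the low-coverage end in these windows too. In share of the gene, the measure of the second comparison, their medians lay further apart than those of members, at -0.05 (60.6% below 0) at the high- and 0.01 (46.9% below 0) at the low-coverage end.

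Gene size moved with the level of the end windows and with the end. Genes with members at the high-coverage end only had a median of 226 windows, those with members at the low-coverage end only 174, and those with both 194. In genes of 40 to under 150 windows the median log2 change was -0.63 at the high- and -0.64 at the low-coverage end. It was -0.29 and -0.57 in genes of 150 to under 250 windows, and -0.01 and -0.33 in genes of 250 to under 400. In genes of 400 or more windows it was 0.24 and 0.08. At the high-coverage end 2 of 636 members in the shortest genes rose and 261 fell (0.314% and 41.0%). In the longest, 233 of 1494 rose and 46 fell (15.6% and 3.08%). The median level of these members also differed, at 117 in the shortest and 40.1 in the longest genes. Over all sizes it was 44.5 at the high- and 53.1 at the low-coverage end. Shares over all windows of each gene size are not given here. The parts of gene size and of level in the gap between the ends were not tested. Within the shortest genes the gap was near 0.

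**Figure D2:**
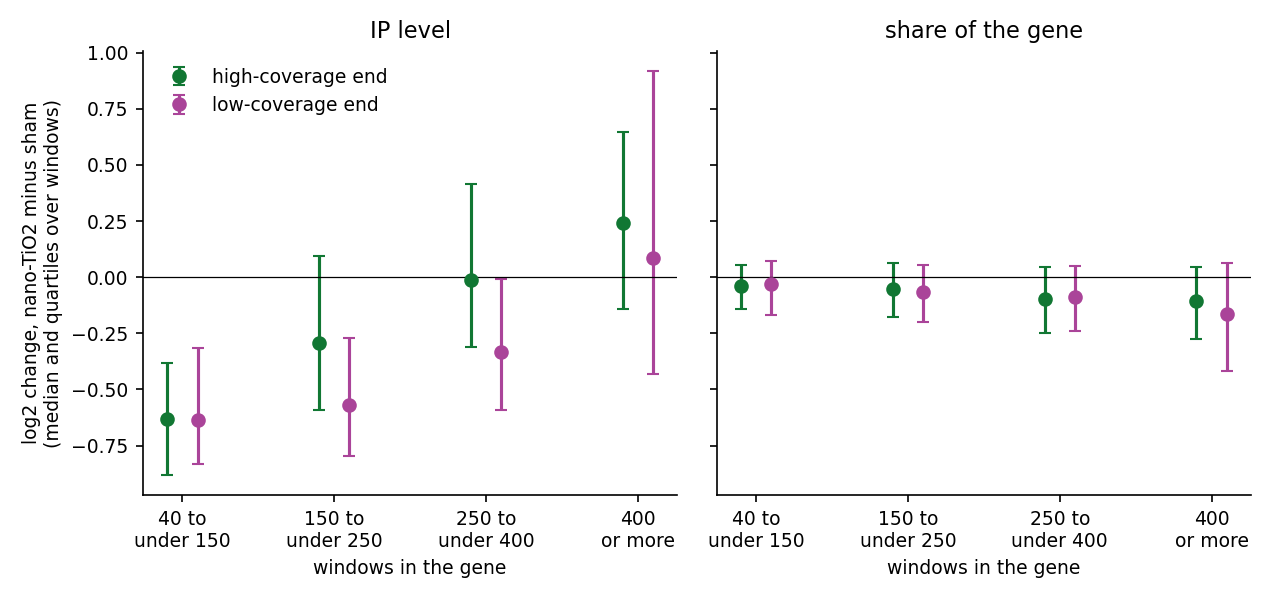
Log2 change from sham to nano-TiO2 (y axis) in IP level (left) and in share of the gene (right) of end windows, by number of windows in the gene (x axis) and by end. Share is taken as the ratio to the other windows of the gene. Points are medians and bars quartiles over windows, which are not independent replicates. Medians of level run from -0.63 and -0.64 in the shortest genes to 0.24 and 0.08 in the longest, while medians of share stay between -0.17 and -0.03.

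The 4 members named by the rule for single windows, the largest rises and falls in level whose groups did not overlap, lay in 4 genes. In ENSMUSG00000021268 the window at offset 2126, at the first end of 723 windows, had levels of 12.6, 4.38 and 2.70 in sham against 29.0, 53.0 and 24.97 in nano-TiO2. Its sham values rested on 14, 4 and 2 reads. The level rose by 2.43 on the log2 scale (SE 0.46, adjusted p = 0.00725, limma), with the gene up by 1.79. In ENSMUSG00000045962 the window at offset 251, at the first end of 913 windows, had 8.10, 5.48 and 5.41 in sham against 42.4, 29.0 and 39.5 in nano-TiO2. It rose by 2.37 (SE 0.34, adjusted p = 0.00526, limma), with its gene up by 1.77. Both windows lie at the low-coverage end of long genes. Their sham means, 6.56 and 6.33, were under the level threshold of 20, so the nano-TiO2 libraries carried them into the members.

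Of the falls, the window at offset 467 in ENSMUSG00000006574, at the first end of 195 windows, had levels of 32.4, 128 and 20.3 in sham against 11.2, 8.28 and 9.66 in nano-TiO2. Sham replicate 2 stood far above the other libraries. The nano-TiO2 mean, 9.70, was under the level threshold of 20, so the sham libraries carried this window into the members. The level fell by 2.08 (SE 0.48, adjusted p = 0.0132, limma), and without sham replicate 2 it was -1.33 and did not pass (adjusted p = 0.0604, limma). In ENSMUSG00000069270 the window at offset 2233, near the last end of 99 windows, had 297, 162 and 204 in sham against 75.9, 45.5 and 59.6 in nano-TiO2. It fell by 1.84 (SE 0.25, adjusted p = 0.00447, limma), and its gene fell by 1.59. None of the 4 windows passed the test of share of the gene described next.

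The second comparison asked whether an end window held a different share of its gene after exposure, apart from the level of the gene. The log2 ratio of the window to the sum of all other windows of its gene was tested with limma over the same 250317 windows. A log2 change in share means a change in this ratio throughout, not in the percentage of the gene. For windows that hold much of their gene, the ratio moves by more than the percentage on the log2 scale. In all windows 0.0204% rose in share and 0.0431% fell. Among members 43 windows in 26 genes fell and 0 rose (limma). At an unadjusted p under 0.05, 849 members were lower and 112 higher. An edgeR quasi-likelihood test on the recovered reads, with the other windows of the gene as an offset, called 57 lower, among them all 43, and 1 higher. Of all windows 0.0655% were lower and 0.0439% higher in that test. Sharp windows inside genes gave a like share of calls, with 32 of 6478 lower (0.494%, against 0.492% of members) and 0 higher (limma), and 598 had an unadjusted p under 0.05 in either direction.

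The median log2 change in share was -0.08 over members and -0.01 over all windows tested, and 64.9% of members and 51.8% of all windows were below 0. All 3 nano-TiO2 libraries lay below all 3 sham libraries in 11.5% of members and in 6.27% of windows tested. The opposite held for 2.90% of members and 5.13% of windows tested. Sharp windows inside genes had a median of -0.05, with 61.2% below 0 and 10.4% with all nano-TiO2 shares below sham, values close to those of members. At the low-coverage end 14.8% of members had all nano-TiO2 shares below sham, and at the high-coverage end 9.54%. The medians of the ends were alike, at -0.07 and -0.08, and their difference changed sign between alternatives (-0.04 to 0.03 when 1 library was left out).

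Per library, the median share of the gene held by 1 low-coverage member was 3.53%, 3.51% and 3.57% in sham against 3.27%, 3.25% and 3.31% in nano-TiO2. The groups did not overlap (3.54% ± 0.029 against 3.28% ± 0.032, SD, n = 3). At the high-coverage end it was 2.31%, 2.42% and 2.31% in sham against 2.17%, 2.02% and 2.32% in nano-TiO2, which overlapped. All members together took 5.04%, 4.22% and 5.64% of the summed window reads of the sham libraries and 5.12%, 4.87% and 5.49% of those of the nano-TiO2 libraries, also overlapping. The 5-fold threshold of the rule was passed within a library by 87.7% to 90.9% of members in sham and by 79.96% to 89.6% in nano-TiO2, and these ranges overlapped. Median shares that did not overlap were not particular to the low-coverage end. In sharp windows inside genes they were 2.91%, 2.94% and 2.96% in sham against 2.80%, 2.69% and 2.86% in nano-TiO2. All members together, first-end members and last-end members did not overlap in median share either.

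**Figure D3:**
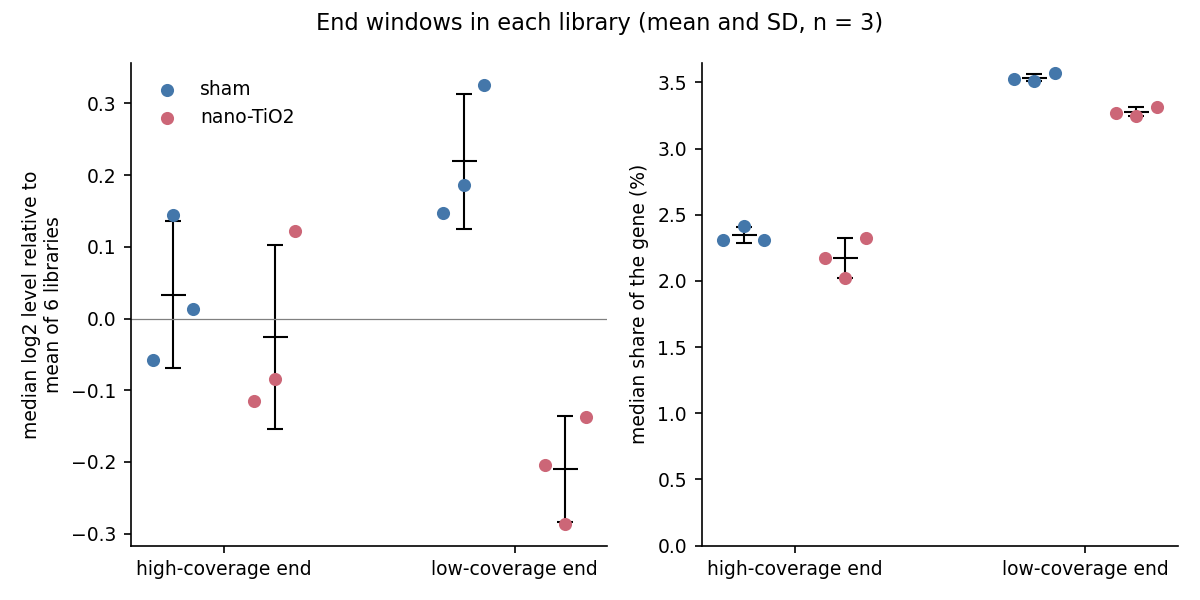
Left: median log2 level of end windows relative to their mean over the 6 libraries. Right: median share (%) of the gene held by 1 end window. Each point is 1 library, and the horizontal mark and bar are the mean and SD of 3. At the low-coverage end sham and nano-TiO2 do not overlap in either plot (3.51% to 3.57% against 3.25% to 3.31% in share), and at the high-coverage end they overlap in both. Sharp windows inside genes, not drawn, did not overlap in either measure.

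Sharper windows made up most of the calls in share. Of members at 5 to 7 times the gene mean 1 of 4804 fell, at 7 to 10 times 7 of 2196, at 10 to 20 times 13 of 1293, and at 20 times or more 22 of 446. The median log2 change in share was -0.07, -0.07, -0.09 and -0.14 in these classes. The classes use the mean over all libraries, which the rule also used. In 35 of the 43 called windows both groups' means met the rule when taken alone.

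**Figure D4:**
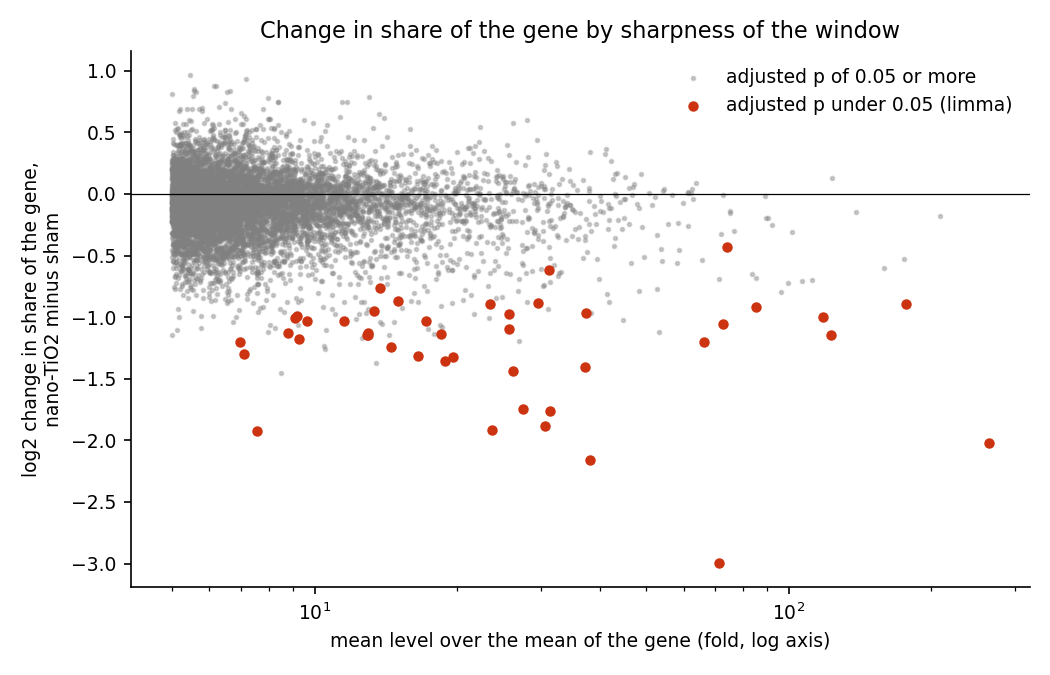
Log2 change in share of the gene, as a ratio to its other windows, from sham to nano-TiO2 (y axis). The x axis (log scale) is the mean level over the gene mean, with 1 point per end window. The 43 windows with an adjusted p under 0.05 (limma) are in red. All of them lie below 0, between -3.00 and -0.43, and 22 are at 20-fold or more.

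Isolated windows, those alone in their run, could also stand far over their neighbours. Members alone in their run and at least 10 times over the mean of their neighbours, or with neighbours at 0, numbered 69 in 63 genes, and 11 of them fell in share. Their median log2 change in share was -0.30, and in level -0.66. Among the other 1840 single windows 2 fell in share, in runs of 2 to 4 windows 20 of 2697, and in runs of 5 or more 10 of 4133. These classes have medians in share of -0.07, -0.08 and -0.07.

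As a ratio to the other windows of the gene, the 43 windows fell by a median of 1.14 on the log2 scale. Their own level had a median log2 change of -0.83, below 0 in 42, and 21 of them also fell in level. The sum of the other windows of the gene had a median change of 0.43 and was above 0 for 38. With the deposited scaling the window was thus lower and the remainder higher in most of them. The number of windows with a read was higher in every nano-TiO2 library than in any sham library. The part of that wider spread of reads in the fall in share was not tested. By end, 20 of the windows, in 9 genes, were at the high-coverage end and 23, in 17 genes, at the low-coverage end.

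One gene of 463 windows gave 11 of the 43 calls. Its 13 end windows were at the high-coverage end, and the 11 that fell started 774 to 1599 nucleotides from the first window. Together the 11 held 41.5%, 44.1% and 53.9% of the gene in sham and 30.4%, 13.4% and 21.3% in nano-TiO2. The groups did not overlap, and nano-TiO2 replicate 1 lay nearest to sham. Their summed level was 1550, 1765 and 3036 in sham against 1473, 761 and 1518 in nano-TiO2. The summed level of the whole gene changed by 0.41 on the log2 scale and did not pass (adjusted p = 0.147, limma). These windows lie in the same gene, may share RNA fragments and are not 11 separate observations. Without this gene 32 calls in the other 25 genes were left.

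The 3 largest falls were at the low-coverage end. In a gene of 286 windows, the window 50 nucleotides from the first held 56.2%, 38.8% and 58.9% of the gene in sham and 7.89%, 11.3% and 15.0% in nano-TiO2. Its level was 36.9, 34.0 and 44.6 in sham against 13.4, 13.2 and 20.9 in nano-TiO2. In the other windows of the gene the summed level was 28.8, 53.7 and 31.1 in sham against 156, 104 and 118 in nano-TiO2. Every nano-TiO2 library was below every sham library in the window and above every sham library in the remainder. The log2 ratio of the window to the remainder fell by 3.00 (SE 0.30, adjusted p = 8.62e-06, limma).

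In a gene of 641 windows the member with the highest fold over the gene, 264, lay 500 nucleotides from the first window. It held 56.8%, 55.8% and 61.2% of the gene in sham and 23.9%, 24.5% and 27.5% in nano-TiO2. The windows on both sides had mean levels of 0.995 and 1.93, against 198 in the window itself. Its level was 191, 233 and 380 in sham against 121, 96.0 and 168 in nano-TiO2. The log2 ratio of the window to the rest of its gene fell by 2.02 (SE 0.12, adjusted p = 6.15e-11, limma), and by 1.92 to 2.10 when 1 library was left out.

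In a gene of 448 windows the member 1100 nucleotides from the first window held 22.3%, 13.5% and 16.9% of the gene in sham and 4.47%, 5.34% and 3.51% in nano-TiO2. Its log2 ratio to the rest of the gene fell by 2.16 (SE 0.23, adjusted p = 1.50e-05, limma). The whole gene rose by 1.08 (adjusted p = 0.00216, limma). In a gene of 137 windows the member 25 nucleotides from the last window held 8.05%, 10.3% and 12.2% in sham against 3.31%, 1.85% and 3.47% in nano-TiO2. It was 7.56 times over the gene mean, and its log2 ratio to the rest of the gene fell by 1.92 (SE 0.28, adjusted p = 0.00192, limma).

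At the high-coverage end the largest fall was in a gene of 141 windows, 200 nucleotides from the last window. That window held 21.2%, 28.3% and 36.7% of the gene in sham and 11.7%, 7.42% and 9.15% in nano-TiO2. Its log2 ratio to the rest of the gene fell by 1.92 (SE 0.25, adjusted p = 4.82e-04, limma). In a gene of 212 windows the share was 26.9%, 16.2% and 26.1% in sham against 8.93%, 4.03% and 9.80% in nano-TiO2. There the log2 ratio fell by 1.89 (SE 0.29, adjusted p = 0.00321, limma). Neither window passed in level, where the adjusted p was 0.0927 and 0.0654 (limma).

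**Figure D5:**
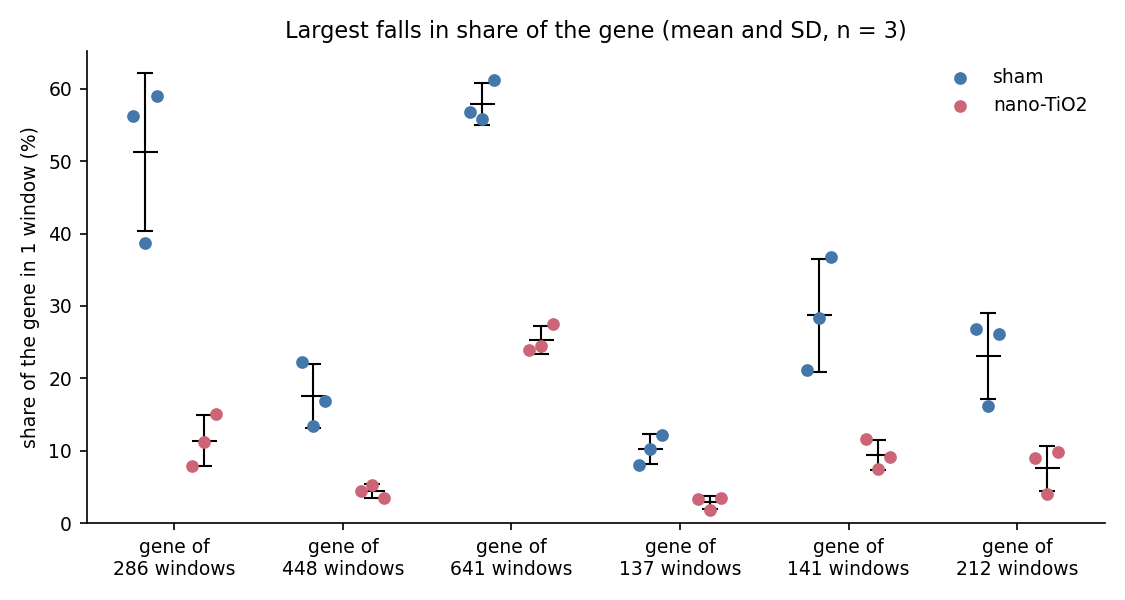
Share (%) of the gene held by 1 end window in each library, for 6 genes with large falls named by their number of windows. Points are libraries, and the horizontal mark and bar are the mean and SD of 3. In each of the 6 all nano-TiO2 values lie below all sham values, for example 23.9% to 27.5% against 55.8% to 61.2% in the gene of 641 windows.

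A window can hold nearly all of its gene with a small change in level. In a gene of 201 windows, a high-coverage member 177 times over the gene mean held 93.0%, 91.6% and 88.9% in sham against 84.2%, 81.2% and 88.3% in nano-TiO2. Its level was 251, 262 and 250 in sham against 225, 196 and 243 in nano-TiO2, a log2 difference of -0.20 that did not pass (adjusted p = 0.503, limma). The share fell by 0.89 as a ratio to the other windows (SE 0.15, adjusted p = 0.0105, limma), but the call was lost without sham replicate 1 and without either of the first 2 nano-TiO2 replicates (adjusted p up to 0.122, limma). A member at the first window of a gene of 313 windows held 74.3%, 55.3% and 75% in sham against 71.4%, 61.5% and 64.3% in nano-TiO2, which overlapped.

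Rises in share did not pass the test. The high-coverage member with the smallest p among those whose groups did not overlap, in a gene of 527 windows, held 1.14%, 0.988% and 1.12% in sham against 1.59%, 1.79% and 1.55% in nano-TiO2. Every nano-TiO2 share was higher, with a log2 difference of 0.60 (SE 0.13, adjusted p = 0.0881, limma).

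The count of falls in share depended on single libraries. Without sham replicate 1, sham replicate 3 or nano-TiO2 replicate 2, 25, 18 and 28 of the 43 windows were still called lower, and 30 to 33 without each of the others. All 43 stayed below 0 in each of these fits. With the whole gene as the denominator 29 were called lower, and 0.0260% of all windows. In limma's diffSplice, which sets a window against the other tested windows of the gene and pools the spread over the gene, 0 of the 43 were called and 35 were below 0. Over all windows diffSplice called 0.0373% higher and 0.00922% lower.

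The gene with the most members had 151, at both ends of 4693 windows and in 28 runs. The median log2 change of these windows was 1.33 in level and -0.04 in share. By contrast, 68 members in a gene of 1176 windows formed 1 run at the high-coverage end, with medians of -0.43 in level and -0.12 in share. A gene of 1145 windows had 58 members at the high-coverage end with medians of 1.25 and 0.08.

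The authors' adjusted values were the third measure of the same windows. They equal the normalized values divided by a factor per gene and library and rounded to whole numbers, so shares within a gene stay as they were apart from rounding. What the factor was made from is not stated. Of 253327 windows tested with limma, 0.00118% rose and 0.00197% fell. Among members 3 fell and 0 rose, and 1102 had an unadjusted p under 0.05, of which 714 were lower. The median log2 change was -0.01 over members and 0.09 over all windows tested. It was 0.05 at the high- and -0.11 at the low-coverage end.

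The 3 windows that fell in adjusted level were the low-coverage members in the genes of 286, 448 and 641 windows described above. In the gene of 641 windows the adjusted values were 270, 288 and 316 in sham against 108, 99 and 140 in nano-TiO2, and the adjusted level fell by 1.338 (SE 0.15, adjusted p = 0.00893, limma). In the gene of 448 windows they were 86, 85 and 80 against 21, 30 and 20, and the adjusted level fell by 1.80 (SE 0.21, adjusted p = 0.0117, limma). In the gene of 286 windows they were 59, 83 and 53 against 8, 11 and 17, and the adjusted level fell by 2.38 (SE 0.29, adjusted p = 0.0117, limma). Groups did not overlap in any of the 3. Without sham replicate 1 or nano-TiO2 replicate 1, 0 members fell in adjusted level, and without sham replicate 2 the count was 14. Over all windows 0, 1 and 20 fell in these 3 fits.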

How the data were processed

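RNA of 3 sham and 3 nano-TiO2 pools of fetal hearts, 3 µg each per the labels' protocols, was fragmented and bound to an anti-m6A antibody, and the IP was sequenced. The submitters' processing notes name HISAT2 2.2.1, Salmon 1.5.2, DESeq2 1.34.0 and GRCm39, with no role or order. The sources used here do not state how windows were made or how reads of adjoining windows were counted. The deposited normalized table holds signal values, which the authors made by dividing reads per window by 1 size factor per library. In each library 100% of the values were whole multiples of 1 step, within 0.0001 of a read, which gave the reads back. The deposited adjusted table holds scores, which the authors made by dividing the normalized value by a factor per gene and library, rounded to whole numbers. A filtered table was identical to the normalized one and was not used.

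The end windows, the grouping of ends and the lists were chosen with earlier results of these data known. Members were found by rank and level as the text states. All tests ran over the whole table in limma 3.58.1 (R 4.3.3), nano-TiO2 against sham, with a trend in the prior variance, a pseudocount of 1, a mean of at least 10 and Benjamini-Hochberg adjustment over all features at 0.05. Share of a gene was the log2 ratio of a window to the sum of the other windows of its gene, each plus 1. Alternatives used edgeR 4.0.16 and DESeq2 1.42.0 on recovered reads, other scalings, filters, pseudocounts, rules of membership and each library left out. Scripts ran in Python 3.11.15 and were tested on simulated data. The p-values at windows do not allow for any reads shared by adjoining windows.

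Single windows were named by ID only for the 2 largest rises and 2 largest falls in level among called members whose groups did not overlap, 1 per gene, because 0 of 48505 IDs matched a symbol in the RefSeq table at hand. The other windows described singly are those with the highest level, the highest fold or the largest change in share at each end. Cell type markers, gene lists and the sequence motifs that had been chosen could not be used without symbols or a genome, and no sequence is printed. The largest sum of window reads in a library was 31523675 and the smallest 20205024. With 3 libraries a group, standard errors measure the spread between libraries at these sums.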

Additional observations from a re-analysis of the deposited data

How the results depend on the processing

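Rises and falls in level were balanced differently by scaling and by choice of members. With trimmed-mean scaling (TMM) 6.20% of members fell in level and their median log2 change was -0.068. With equal library totals 19.04% rose, 0.915% fell and the median turned to 0.25. Quantile normalization gave 1.73% falls and a median of -0.046. Members at 10-fold or more over the gene had 24.96% falls and a median of -0.42. Members with a mean of at least 50 had 27.9% falls, or 36.3% when only windows of that mean were tested (34.8% of all 57169 such windows), with a median of -0.43 in both (-0.42 over all such windows). For the genes of the members, equal totals gave 33.8% rises, 1.39% falls and a median of 0.33. With 1 library left out, members had 3.27% to 6.97% rises and 7.52% to 10.8% falls in level, and the last end stood 0.0345 to 0.0730 above the first. Of all windows 1.30% to 3.39% rose and 2.93% to 5.77% fell in these fits. Falls in share numbered 76 with windows of a mean of at least 1 tested (0.870%, against 0.0280% of all windows). With a mean of at least 50 they numbered 14 (0.336%, against 0.0595%). When adjoining members were summed, 74 of 3400 runs fell (2.18%, against 0.0580% of all features). With 1 library left out 22 to 63 fell (0.252% to 0.721%, against 0.0228% to 0.0583%). In limma's diffSplice 0 fell (0.00922% of all windows). Rises in share numbered 1 with a pseudocount of 5, 1 in edgeR with the offset, 2 of the 3400 runs, and 0 to 1 with 1 library left out. Over all features the rises in these fits were 0.0519%, 0.0439%, 0.0229% and 0.00799% to 0.0324%. In adjusted level the falls numbered 0 at a mean of at least 1 or of at least 50 and 0 to 14 with 1 library left out, the rises 0 to 1, and the median was -0.10 with TMM. With 1 library left out, 0% to 0.00789% of all windows fell and 0% to 0.00395% rose in adjusted level. The difference between high- and low-coverage ends in level kept its direction in all 24 alternatives computed for it (0.27 to 0.44), and the median change in share stayed below 0 in all 25 (-0.10 to -0.04). Requiring the rule in each group alone, the offset test, library weights for adjusted values and genes, and the grouping of ends were added after seeing the data. Depth limits low members: the sham levels of the 2 windows that rose and are named by ID rested on 2 to 14 reads. Replicate numbers are shared between the groups. Deviations of same-numbered libraries had correlations of -0.14, 0.07 and 0.04, within the range of -0.28 to 0.25 for differently numbered libraries. With 3 libraries a group these values cannot decide whether the numbers pair samples. A fit with the replicate block called 1 rise and 21 falls of members in adjusted level (0.0111% and 0.0383% of all windows). In IP level the block fit called 643 rises and 1561 falls of members (4.14% and 8.54% of all windows). It called lower all 43 windows that fell in share.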
